A study of Mus musculus with 12 samples.

Results

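The 690 regions described here are stretches of open chromatin in which a peak was called in both libraries given an LSD1 inhibitor with 2 metabolic drugs (Combo) and in both given the inhibitor alone (LSD1i), and in none of the other 8 libraries of the series. Open chromatin was mapped by ATAC-seq, in which a transposase cuts accessible DNA, in mouse granulocyte-monocyte progenitors from C57BL6 bone marrow that carry ER-HOXA9, in which the leukaemia-associated transcription factor HOXA9 is fused to estrogen receptor sequence. All cells were grown with stem cell factor and 0.5 uM beta-estradiol, so the ligand of the fusion was present in every group. Combo cells received 200 nM of the inhibitor GSK-LSD1, 5 uM mercaptopurine and 5 uM cerulenin, and LSD1i cells received 200 nM GSK-LSD1. CER cells received 5 uM cerulenin, an inhibitor of fatty acid synthase, and 6MP cells received 5 uM mercaptopurine, a purine analogue. Vehicle cells received DMSO. These 5 groups were sampled on day 2, and untreated Day0 cells were sampled on day 0. Each group has 2 numbered replicates, and the labels do not say whether these were separate cultures or whether the cells were 1 clone, so the p-values below measure the spread between libraries, which may be technical.

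Peaks of the 12 libraries that overlapped by at least 1 bp were merged into 73156 union regions, of which the 690 are 0.943%. A peak was called in all 4 Combo and LSD1i libraries at 43671 union regions and in all 12 libraries at 33368. Exactly 4 libraries held a peak at 3271 union regions, and at 690 of these, or 21.1%, the 4 were the Combo and LSD1i libraries. The regions were chosen by the peak calls of all 12 libraries, so each value that sets Combo or LSD1i against another group is given below as a description, with no test. The difference between Combo and LSD1i was not used in the choice, although a peak was required in all 4 libraries, and was tested.

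LSD1, the product of Kdm1a, removes methyl groups from lysine 4 of histone H3 as part of the CoREST corepressor complex. In blood cells it is brought to DNA largely by the repressors GFI1 and GFI1B, which hold it at enhancers and promoters of myeloid genes. GSK-LSD1 binds the enzyme irreversibly. In acute myeloid leukaemia cells, inhibition of LSD1 is known for inducing myeloid differentiation genes, with PU.1, an ETS factor, and C/EBP factors bound at many of the sites that open. Active HOXA9 keeps granulocyte-monocyte progenitors dividing and blocks their maturation.

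Few of the regions lay at a promoter, and those that did are the ones for which reference sequence could be shown. Among the 32851 RefSeq promoter windows of the GRCm38.p6 assembly (the mm10 build of the peak lists), each 300 bases long with 250 bases before the transcription start and 50 after it, 15 overlapped 15 of the regions. The summit of the region fell inside the window at 10 of them, and 8 of the 15 belong to protein-coding genes. The sequences below are 6 of these 8, all promoters that carried a peak in the Combo and LSD1i libraries alone. The other 2, Gm1966 and Adgrf1, met the same condition and are not shown. At Il33 the summit lay outside the window. Capitals mark the letters GGAAG (ETS core), AAATCNC (GFI1 core), TGANTCA (AP-1), TTGCNNAAT (C/EBP) and the IRF pattern, 2 copies of GAAA spaced by 2 bases of any kind, on either strand. The sequences run 5′ to 3′ on the strand of the gene.
Mmp12, chr9:7347124-7347423, plus strand: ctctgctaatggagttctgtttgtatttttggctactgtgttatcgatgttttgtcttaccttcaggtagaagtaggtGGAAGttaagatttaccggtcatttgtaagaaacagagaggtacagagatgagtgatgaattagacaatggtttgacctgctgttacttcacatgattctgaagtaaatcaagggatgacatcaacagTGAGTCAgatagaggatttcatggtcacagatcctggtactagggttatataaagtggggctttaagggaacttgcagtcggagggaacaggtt
Ifi207, chr1:173741760-173742059, minus strand: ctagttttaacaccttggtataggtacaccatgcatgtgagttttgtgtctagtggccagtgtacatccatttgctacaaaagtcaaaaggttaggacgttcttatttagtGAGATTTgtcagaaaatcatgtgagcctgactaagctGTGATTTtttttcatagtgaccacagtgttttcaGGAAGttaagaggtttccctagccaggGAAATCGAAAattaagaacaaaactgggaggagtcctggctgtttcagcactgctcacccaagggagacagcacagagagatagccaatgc
Id3, chr4:136143572-136143871, plus strand: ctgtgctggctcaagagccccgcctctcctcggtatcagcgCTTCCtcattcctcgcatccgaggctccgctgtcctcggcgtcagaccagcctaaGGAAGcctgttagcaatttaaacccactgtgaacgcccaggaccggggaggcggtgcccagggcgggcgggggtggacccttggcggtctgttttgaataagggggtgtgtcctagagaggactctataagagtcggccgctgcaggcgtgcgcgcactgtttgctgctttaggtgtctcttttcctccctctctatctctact
Il33, chr19:29924863-29925162, plus strand: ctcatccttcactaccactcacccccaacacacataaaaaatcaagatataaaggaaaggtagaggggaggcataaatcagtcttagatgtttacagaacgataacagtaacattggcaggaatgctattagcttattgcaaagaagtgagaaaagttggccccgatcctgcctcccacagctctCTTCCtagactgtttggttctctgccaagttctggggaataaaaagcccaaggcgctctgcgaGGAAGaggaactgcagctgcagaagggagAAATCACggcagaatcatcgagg
Wfdc17, chr11:83703806-83704105, plus strand: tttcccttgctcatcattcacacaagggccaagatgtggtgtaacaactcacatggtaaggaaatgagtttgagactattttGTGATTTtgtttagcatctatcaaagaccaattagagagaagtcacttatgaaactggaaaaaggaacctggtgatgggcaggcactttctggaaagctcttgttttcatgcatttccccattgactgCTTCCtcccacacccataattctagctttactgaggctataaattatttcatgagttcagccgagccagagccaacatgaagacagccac
Cd200r3, chr16:44943428-44943727, plus strand: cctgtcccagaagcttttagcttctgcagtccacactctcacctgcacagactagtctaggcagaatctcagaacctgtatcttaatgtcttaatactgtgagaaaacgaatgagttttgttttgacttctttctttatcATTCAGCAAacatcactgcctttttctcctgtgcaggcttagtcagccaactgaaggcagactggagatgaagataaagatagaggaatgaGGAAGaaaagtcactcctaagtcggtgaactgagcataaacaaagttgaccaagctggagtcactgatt

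The GFI1 core letters stood in 7 of the 15 windows (46.7%, exact Clopper-Pearson 95% interval 21.3% to 73.4%). The interval covers counting error only. The share was 11.7% of all 32851 windows and 8.95% of the 12468 windows under a region called in all 12 libraries. The search took in whole windows, including parts outside the region. At 8430423G03Rik and LOC115489933, both long noncoding RNAs, the GFI1 core letters lay outside the region. In the sequences above the GFI1 core letters appear at 2 places at Ifi207 and at 1 each at Il33 and Wfdc17, and not at Mmp12, Id3 or Cd200r3. The ETS core stood in 14 of the 15 windows, against 71.4% of all windows, a short pattern that most promoters hold. AP-1 letters stood in 2 windows (13.3%, against 7.81% of all windows), 1 of them Mmp12, and IRF letters in 2 (13.3%, against 3.44%), 1 of them Ifi207. The AP-1 letters of the other window, that of LOC115489933, also lay outside the region. The C/EBP letters stood in 1 window, that of Cd200r3 (6.67%, against 2.40% of all windows). The longer PU.1 pattern GAGGAAGT, which contains the ETS core, the GATA pattern AGATAAG and the KLF/SP pattern CCCCGCCCC stood in none, against 3.20%, 3.04% and 11.4% of all windows. RUNX letters (TGTGGTT) stood in 1 window (6.67%, against 5.27% of all windows), the ETS-IRF composite, which overlaps both the ETS core and the IRF letters, in 1 (against 2.72%), and the E-box CAGCTG in 2 (13.3%, against 16.3%). Base composition differed between the sets: the median GC content was 47.0% in the 15 windows, 52.7% in all windows and 61.3% in those open in all 12 libraries. The part of base composition in these shares was not tested, and a match of letters is not a bound site.

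At these promoters the peaks ranged from weak to strong. Pileup below is the number of fragments over the summit, and local background is the number that the peak caller took as the expected one there. Pileup is not scaled between libraries. Over all called summits its median was 74 and 75 in Combo, against 65 and 67 in LSD1i, so a higher raw pileup in Combo is not by itself a difference. Mmp12, which encodes macrophage elastase, had pileups of 92 and 93 in the Combo libraries, against 34 and 51 in the LSD1i libraries, with local backgrounds of 25.1 and 23.4 in Combo and 11.5 and 12.9 in LSD1i. Both Combo libraries were above both LSD1i libraries on pileup and on background. On the centred scale defined below, Combo minus LSD1i was 0.79 ± 0.24 (SE, n = 2 per group; limma adjusted p = 0.174). On the fold over the local background, a scale added after seeing the data, the difference was 0.02. Ifi207, an interferon-inducible gene of the PYHIN family, had 92 and 94 fragments in Combo, against 55 and 72 in LSD1i. The centred difference at Ifi207 was 0.20 (limma adjusted p = 0.831). Id3, an inhibitor of helix-loop-helix transcription factors, had 125 and 125 in Combo, against 121 and 121 in LSD1i, over a local background of 28.6 to 32.8. Il33, a cytokine of the interleukin-1 family, had 40 and 35 in Combo, against 19 and 35 in LSD1i. Wfdc17, a gene for a WAP-domain protein, and Cd200r3, a CD200 receptor family member, had between 18 and 42 fragments in the 4 libraries. Adgrf1, an adhesion G protein-coupled receptor, had 56 and 62 in Combo, against 62 and 50 in LSD1i.

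Most of the 690 regions were weak peaks. In these bulk libraries a larger share of cells with a site open and a more accessible site per cell cannot be told apart. The median pileup was 38 and 35 fragments in Combo replicates 1 and 2, against 27 and 34 in LSD1i replicates 1 and 2. The lowest was 13 or 14 in each library, at the smallest pileup that was called, and the highest 304 and 317 in Combo and 231 and 290 in LSD1i. The median fold of the summit over its local background, the authors' value, was 5.27 and 5.59 in Combo and 4.25 and 4.94 in LSD1i. To set regions and libraries on 1 scale, the log2 ratio of the pileup to the lowest background of the library was centred by subtracting its median in that library at the 33368 constitutive regions, so that 0 is a typical constitutive peak. On this centred summit signal the 690 regions ran between -3.28 and 0.92 with a median of -2.16. Signal was below 0 at 673 regions and at or above it at 17. The median SD between replicates was 0.16 in Combo and 0.15 in LSD1i, against 0.11 and 0.11 at the 42981 regions called in all 4 of these libraries and in 1 or more others.

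The 20 regions of highest signal fell into 2 kinds, by the local background under them. The kind with a low background included a region 3.1 kb from the start of Cib4, a member of the calcium and integrin binding family (chr5:30548641-30549367). It had 192 and 188 fragments in Combo, against 129 and 185 in LSD1i, over a background of 15.3 to 18.3. The region in Cd83, whose product is displayed by dendritic cells once they mature (chr13:43788567-43789546, 4.0 kb from the start), had 176 and 165 in Combo, against 141 and 176 in LSD1i, over 11.8 to 14.4. A region in Cav3, a caveolin of muscle, had 154 and 153 in Combo, against 119 and 161 in LSD1i. Another lies in the gene Ptgfrn, and its nearest start, 28.8 kb away, is that of Cd101, an immunoglobulin-superfamily protein of leukocytes. It had 159 and 142 in Combo, against 117 and 123 in LSD1i. A region in Lrrc8b, a subunit of volume-regulated anion channels, also belonged here. In raw pileup the libraries of the 2 groups overlapped at Cd83 and Cav3, while at Cib4 and Cd101 both Combo libraries were above both LSD1i libraries. The centred difference was -0.06 at Cib4 and -0.04 at Cd101.

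The other kind stood on a high background. The region of highest signal lay 2.1 kb from the start of Rilpl2, a regulator of protein transport to the primary cilium (chr5:124480140-124480441). It had 304 and 265 fragments in Combo, against 231 and 290 in LSD1i, over a local background of 142 and 131 in Combo and 115 and 127 in LSD1i. A region 2.6 kb from the start of Eif5, a translation initiation factor, had 291 and 317 in Combo, against 170 and 221 in LSD1i, over 113 to 163. Similar regions had Lgmn, a lysosomal protease, Syne3, a nuclear envelope protein, and Bri3 as the nearest gene. In all, 13 of the 20 had a local background of at least 5 times the library's lowest.

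**Figure D1:**
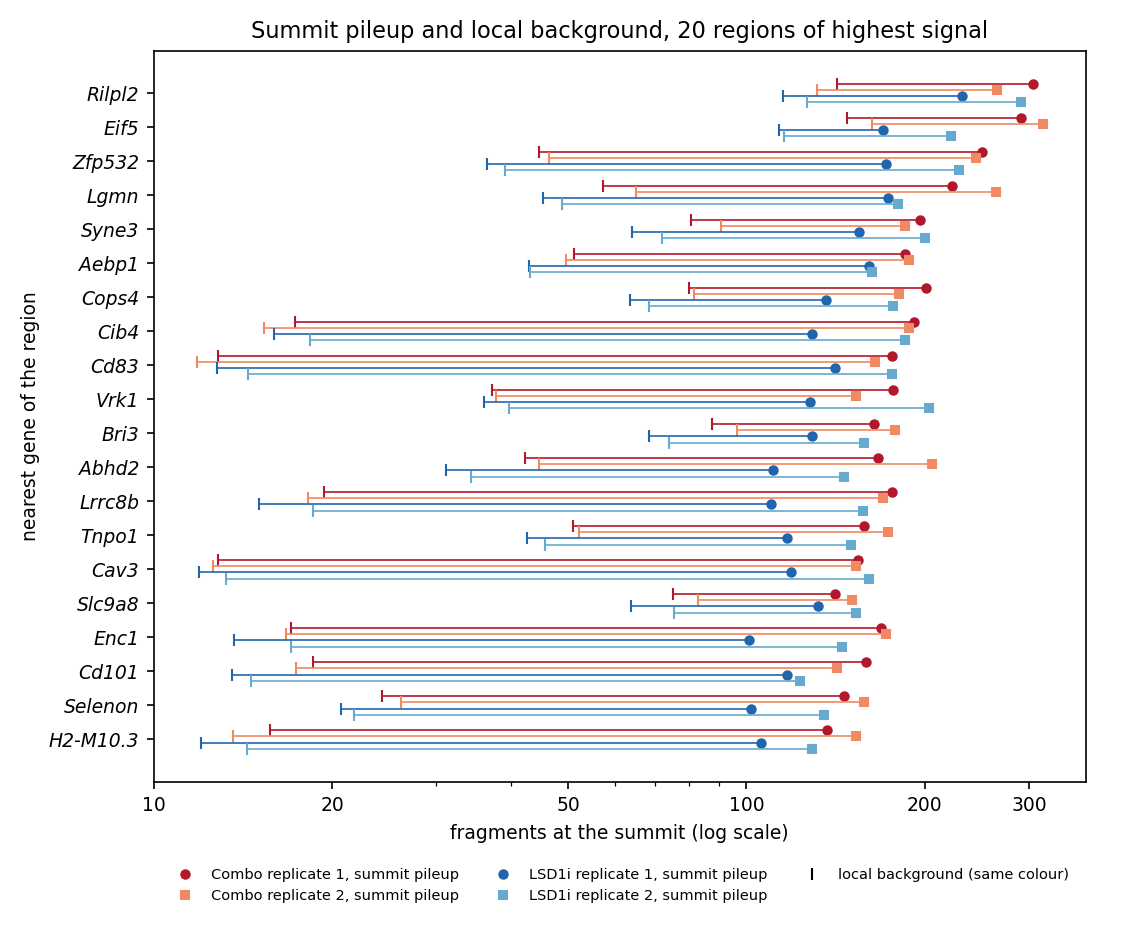
Summit pileup (circles and squares) and local background (ticks) in fragments, on a log axis, in each of the 2 Combo and 2 LSD1i libraries, for the 20 regions of highest mean signal, named by the nearest gene. The gap between tick and symbol is wide at Cib4, Cd83 and Cav3, with backgrounds under 20 fragments, and narrow at Rilpl2, Eif5 and Bri3, where the background itself passed 60 fragments in every library.

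Over all 690, the local background was under 1.5 times the library's lowest at 477 regions (69.1%), 1.5 to 5 times at 165 and 5 times or more at 48 (6.96%), limits that were chosen after seeing the values. The 48 were narrower, with a median width of 454 bp, against 709 bp for the 477. Their median fold over the local background was 2.58, against 5.37 for the 477.

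The authors' deposited tables, which list regions past an FDR of 0.05 for each drug group against Vehicle, show how many reads the same places held without a called peak. They use the libraries that chose the regions and both share the Vehicle libraries, so the folds are descriptions. The authors' deposited table for Combo against Vehicle listed 577 of the 690 (83.6%), all as opened, where 12.8% of the 53239 regions tested were opened, a total inferred from the ranks of its p-values. The authors' deposited table for LSD1i against Vehicle listed 549 (79.6%), all as opened, where 6.81% of 51629 were. The 2 tables differ in balance. That for Combo held 6813 opened and 1142 closed regions, and that for LSD1i 3518 opened and 17729 closed. Their scaling is not stated, so a larger fold or a listing in 1 of them is not read as a difference between Combo and LSD1i. Both tables listed 515 regions, the one for Combo alone listed 62, the one for LSD1i alone 34, and neither listed 79. The median centred signal of these 79 was -2.52, against -2.03 for the 515. The authors' deposited tables for CER against Vehicle, 6MP against Vehicle and Vehicle against Day0 listed none of the 690. These tables listed 172 of 47174, 18778 of 44912 and 746 of 39858 regions tested, but only 3, 18 and 719 of those listed were opened. The rule itself asked for no peak in those libraries.

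In the authors' deposited table the median log2 fold was 1.71 for Combo over Vehicle, within 0.55 to 4.36, and 1.47 for LSD1i over Vehicle, within 0.44 to 4.05. The medians of all opened regions in these tables were 0.98 and 0.83. The authors' deposited tables held 212 of the 690 at a log2 fold of 2 or more for Combo, which is 45.4% of the 467 regions of that size in the whole table, and 149 for LSD1i, 67.7% of 220. The median Vehicle level in the authors' deposited table for LSD1i was 5.64 on its log2 scale, within 2.00 to 9.53, against 7.10 for all its opened regions. So the absence of a called peak in Vehicle covered levels from very low to well above that median.

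The 48 regions of high background are where the called peak and the deposited fold part most. Of the 48, the authors' deposited tables listed 34 for Combo and 27 for LSD1i, and the median fold of those listed was 1.18 for Combo and 1.0 for LSD1i, with a median Vehicle level of 7.68, against 1.72 and 1.45 with a Vehicle level of 5.46 among the 399 and 381 listed of the 477 with low background. Vehicle levels of single regions below are those of the table for LSD1i. At Rilpl2 the authors' deposited tables gave a fold of 0.60 for Combo and 0.48 for LSD1i over a Vehicle level of 9.53. Id3 stood at 1.03 for Combo and 1.12 for LSD1i over a Vehicle level of 8.12 in the authors' deposited tables. At Cd83 they gave 3.56 for Combo and 3.54 for LSD1i over a Vehicle level of 5.98, and at Cib4 4.08 and 3.91 over 5.65. Named after their values were seen, the regions of largest LSD1i fold in the authors' deposited table included those nearest to Dnah7a, an axonemal dynein chain (4.05), Scgb2b26, a secretoglobin (3.86), Otor (3.85), the collagen receptor subunit Itga1 (3.82), the zinc-finger gene Zfat (3.75) and the NAD-consuming surface enzyme Cd38 (3.56). For Combo the authors' deposited table gave 3.67, 4.16, 4.11, 3.99, 4.36 and 3.81 at these 6 regions in the same order.

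**Figure D2:**
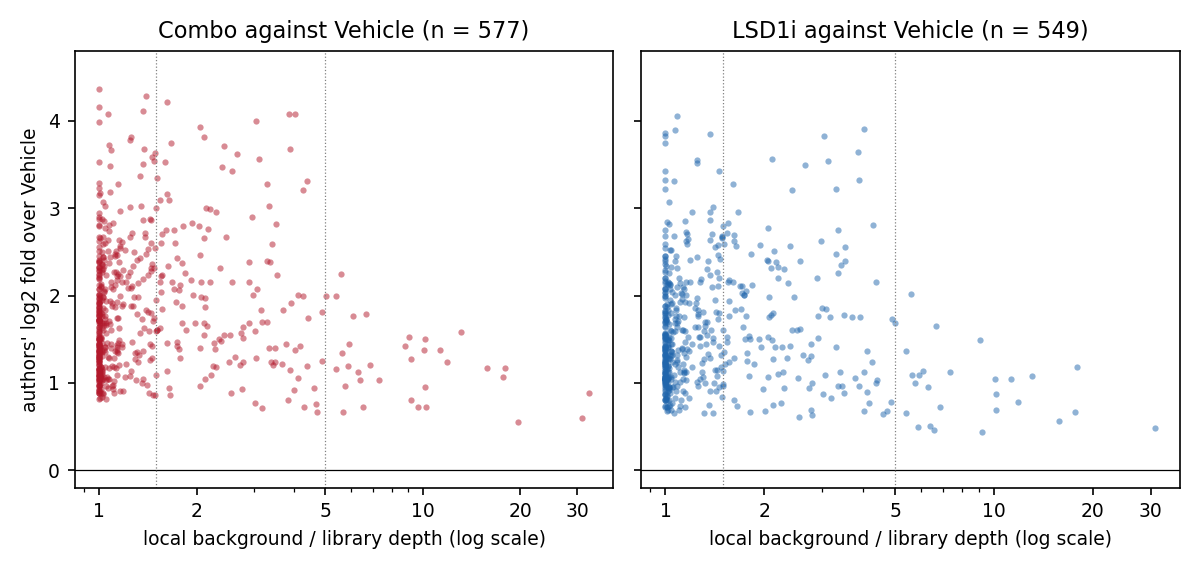
The authors' log2 fold over Vehicle (y axis) against the mean ratio of local background to the lowest background of the library in the Combo and LSD1i libraries (x axis, log scale), for the 577 regions listed for Combo (left) and the 549 listed for LSD1i (right); each point is 1 region and dotted lines stand at 1.5 and 5. Folds above 3 lie to the left of the line at 5, and the regions to its right reach 2.25 for Combo and 2.02 for LSD1i.

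Few of the regions lay at the start of a protein-coding gene, although many lay inside one. The summit was within 1 kb of the start of a protein-coding gene at 13 of 690 (1.88%, exact Clopper-Pearson 95% interval 1.01% to 3.20%, which covers counting error only), against 15.6% of all union regions and 30.5% of those called in all 12 libraries. The share was 3.49% among the 2581 other regions with a peak in exactly 4 libraries. The median distance to the nearest start was 34.0 kb for the 690, against 17.7 kb for all union regions and 22.7 kb for the 2581. The 548 regions called in all 4 Combo and LSD1i libraries and in exactly 1 other were closest to the 690, with a median of 31.3 kb, 3.29% within 1 kb and 20.1% over 100 kb. Distances over 100 kb were found at 23.8% of the 690, against 11.2% of all union regions and 13.7% of the 2581. The summit lay inside a protein-coding gene at 308 (44.6%), against 54.5% of all union regions and 54.8% of the 2581. These shares were not tested against each other.

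**Figure D3:**
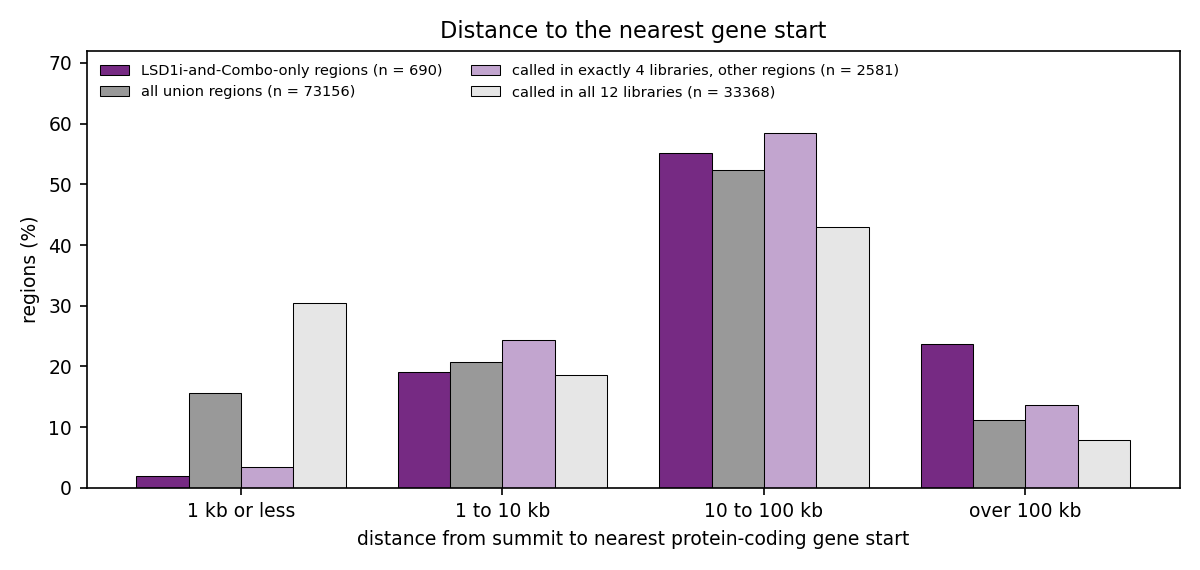
Share of regions (y axis, percent) by distance from the summit to the nearest protein-coding gene start (x axis), for the 690 regions, all 73156 union regions, the 2581 other regions called in exactly 4 libraries and the 33368 called in all 12. At 1 kb or less the 690 stand at 1.88% and the regions called in all 12 at 30.5%, while over 100 kb they stand at 23.8% and 7.96%.

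Apart from Id3, Mmp12, Ifi207, Il33, Wfdc17, Cd200r3 and Adgrf1, the 13 regions within 1 kb of a start were at Gm1966, Syne3, Htr4, Stk19, Yes1 and Prss50, the last 5 named after their positions were seen. By the annotation in the authors' deposited table for LSD1i, whose promoters reach up to 3 kb from the start of a transcript, 107 of the 549 listed regions were promoters (19.5%, against 21.3% of all opened regions), 207 were distal intergenic and 200 intronic. Of the 107, the authors' deposited table placed 56 within 1 kb (10.2%, against 10.7% of all opened regions), on its own set of transcripts.

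The median width was 679 bp, within 280 to 2041 bp, against 886 bp for all union regions and 578 bp for the 2581. The nearest peak of any of the other 8 libraries was between 214 bp and 1045 kb away, with a median of 8.56 kb, and it was less than 1 kb away at 25 regions, 1 to 10 kb at 360 and 10 kb or more at 305. Chromosome 13 held 52 of the 690 (7.54%, against 4.43% of all union regions) and chromosome 11 held 34 (4.93%, against 7.39%).

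The 690 regions had 642 different nearest genes, and 600 of these genes had 1 region. Regions at most 50 kb apart formed 24 pairs and 2 larger runs, with 55 regions in all. The largest run held 4 regions over 49.8 kb of chromosome 13 (97510594 to 97560361). Its nearest protein-coding start is Enc1, a kelch-family actin-binding protein, 269.8 to 318.7 kb away, and the last of the 4 covered the promoter window of the long noncoding RNA Gm5086. The region at 97539347 to 97540347 had 169 and 172 fragments in Combo, against 101 and 145 in LSD1i, and that at 97546054 to 97547147 had 136 and 106 in Combo, against 111 and 149 in LSD1i. The 2 outer regions were weaker, with 30 and 27 in Combo, against 16 and 19 in LSD1i, at 97510594, and 39 and 37 in Combo, against 34 and 42 in LSD1i, at 97559099. In the authors' deposited tables the 4 stood, in the order of their positions, at 2.19, 3.68, 3.28 and 3.72 for Combo and at 1.74, 3.32, 3.22 and 3.89 for LSD1i. Enc1 was also the nearest gene of 2 regions outside the run, 24.6 and 122.9 kb from its start.

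The run of 3 spans 25.7 kb at Cd83, with 1 region 6.5 kb from the start, the strong one described above 4.0 kb from it and another at 17.7 kb. The first had 48 and 50 fragments in Combo, against 49 and 53 in LSD1i, and the last 25 and 21 in Combo, against 29 and 33 in LSD1i. In the authors' deposited tables these 2 stood at 2.38 and 1.66 for Combo and at 2.20 and 1.60 for LSD1i, with Vehicle levels of 6.53 and 5.47 in the table for LSD1i. Klf4, a zinc-finger factor of monocyte development, was the nearest gene of 3 regions 98.8, 112.7 and 291.8 kb from its start, with 14 to 39 fragments in the 4 libraries.

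A set of 15 gene lists of blood lineages, LSD1 partners, metabolism and adhesion, with 304 genes of which 301 were matched, was set against the nearest genes. A listed gene was nearest to 33 of the 690 regions (4.78%, against 3.0% of all union regions), and to 16 when the start had to lie within 50 kb. The nearest gene is a matter of position, and which gene a region acts on was not measured.

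Transcription factors of the myeloid lineage had the largest count, 7 regions at 5 of 28 genes (1.01% of the 690, against 0.552% of all union regions). They were Klf4 with 3, and Cebpb, Cebpd, Irf4 and Klf2 with 1 each. The region nearest to Cebpb, a C/EBP factor of macrophages and granulocytes (13.5 kb from its start), had 67 and 57 fragments in Combo, against 51 and 62 in LSD1i, over a background of 26.5 to 31.4. It was in neither deposited table. The Cebpd region, 68.2 kb from the start in the gene Spidr, had 56 and 47 in Combo, against 41 and 49 in LSD1i, and a fold of 2.30 for Combo and 2.12 for LSD1i in the authors' deposited tables. The region nearest to Irf4, a factor of dendritic and lymphoid cells, had 50 and 50 in Combo, against 26 and 26 in LSD1i. Its groups did not overlap, but the centred difference of 0.58 did not pass the test (limma adjusted p = 0.448).

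Dendritic cell genes had 5 regions at 3 of 24 genes (0.725%, against 0.178%), the 3 of Cd83 and 1 each nearest to Fscn1, an actin-bundling protein, and Tcf4, a factor of plasmacytoid dendritic cells. Monocyte and macrophage genes had 3 at 3 of 30 genes (0.435%, against 0.269%). The region nearest to Cd14, the co-receptor of lipopolysaccharide (13.2 kb), had 127 and 126 fragments in Combo, against 52 and 80 in LSD1i, over backgrounds of 45.8 and 47.6 in Combo and 24.2 and 28.9 in LSD1i, and both Combo libraries were above both LSD1i libraries. Its centred difference was 0.61 (limma adjusted p = 0.21), and in the authors' deposited tables it stood at 1.42 for Combo and was not listed for LSD1i. The other 2 were nearest to Ly86, a partner of a Toll-like receptor homologue, and to the receptor Tlr4, at 217.5 and 551.1 kb.

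Neutrophil granule and maturation genes had 3 regions at 2 of 23 genes (0.435%, against 0.101%), 2 nearest to the formyl peptide receptor Fpr2 and 1 to Olfm4. The Fpr2 region 13.2 kb from the start had 106 and 115 fragments in Combo, against 61 and 100 in LSD1i, and the one 2.3 kb from it, inside the gene, had 25 and 34 in Combo, against 16 and 15 in LSD1i. The authors' deposited tables gave both a fold of 2.67 for Combo, and 1.98 and 1.88 for LSD1i. Olfm4 was 2070.7 kb away. Of the 7 primary granule genes, which mark the progenitor stage, 6 were matched and none was nearest to a region, but these genes were nearest to only 16 of all union regions (0.022%).

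Adhesion and migration genes had 3 regions at 3 of 21 genes (0.435%, against 0.334%). That nearest to the chemokine receptor Cxcr4, at 16.0 kb, had 34 and 38 fragments in Combo, against 43 and 42 in LSD1i, and those nearest to Itga1 and Itga2 had 17 to 32. Among the 13 genes of the GFI1 and LSD1 complex, Phf21a, a subunit that binds histone H3 unmethylated at lysine 4, was nearest to 1 region, at 60.7 kb (0.145%, against 0.126% of all union regions). Progenitor genes had 1, in the gene for the stem cell factor receptor Kit, with 30 and 30 fragments in Combo, against 21 and 35 in LSD1i (0.145%, against 0.498% of all union regions). Purine metabolism genes had 1, nearest to the AMP deaminase Ampd3 (0.145%, against 0.118%). Lists of other cell types were also met. T and NK cell genes had 2 regions, nearest to Cd28 and Gata3 (0.29%, against 0.176% of all union regions), and stromal and endothelial genes 2, nearest to Col3a1 and Pdgfra (0.29%, against 0.10%). Mast cell genes (Mitf), B cell genes (Bach2) and megakaryocyte and erythroid genes (Thbs1) had 1 each (0.145%), against 0.092%, 0.112% and 0.145% of all union regions. None of the 33 passed the test of Combo minus LSD1i.

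**Figure D4:**
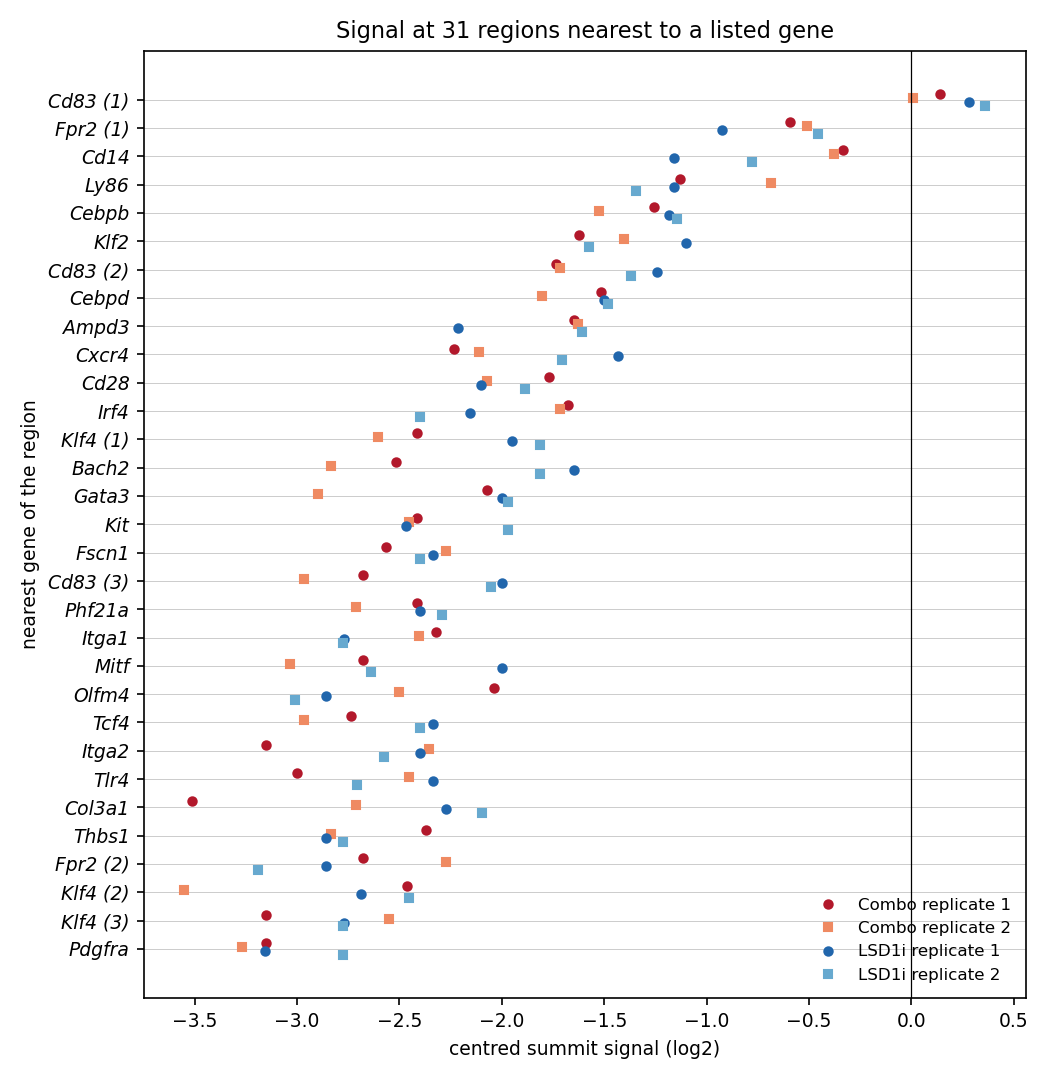
Centred summit signal (x axis, log2, 0 being the median of the regions called in all 12 libraries) of 31 of the 33 regions whose nearest gene is in a list, without the lipid metabolism list, 1 point for each of the 2 Combo and 2 LSD1i libraries; numbers in brackets separate regions of the same gene by rank. The strongest, Cd83 (1), is the one around 0, 6 regions stand above -1.5 on average, and the others reach down to the weak call at Pdgfra.

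The comparison of Combo with LSD1i asks whether mercaptopurine and cerulenin, added to the inhibitor, changed the strength of the peaks. Few regions passed the test in the fit over all 12 libraries. Of the 690, limma called 1 higher and 1 lower in Combo at an adjusted p under 0.05 (0.290%), where it called 49 of the 43671 regions tested (0.112%, 39 higher and 10 lower), a share of 0.0893% higher and 0.0229% lower. The calls among the 690 were 8 higher and 0 lower with signal scaled by depth alone (1.16%, against 0.316% of all regions, 138 higher and 0 lower), and 4 higher and 1 lower with the trend removed (0.725%, against 0.266%, 107 higher and 9 lower). The count depended on where the prior spread came from. With the prior from the 4 Combo and LSD1i libraries alone, 17 were higher and 27 lower (6.38%, against 5.24% of all regions). With a replicate block on these 4 libraries, 17 were higher and 25 lower (6.09%, against 5.2%). In the main fit, of centred signal over all 12 libraries, limma counted 114 of the 690 (16.5%) at an unadjusted p under 0.05, against 10.8% of the 43671. Of the 114, 35 were higher and 79 lower. The split turned with the scale. It was 114 higher and 8 lower with signal scaled by depth alone (122 of the 690, against 3169 of the 43671). With a trend with mean signal removed it was 81 and 49 (130, against 5152). On the fold over the local background it was 77 and 51 (128, against 2673). The split over all regions was not counted at this limit, so these splits are not read as particular to the 690. Weaker peaks, such as these, also had the larger SD between replicates given above.

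The region called higher lies in Nsf, which encodes the ATPase that takes SNARE complexes apart (chr11:103896661-103897658). It had 108 and 129 fragments in Combo, against 44 and 37 in LSD1i, over local backgrounds of 8.8 and 9.5 in Combo and 4.1 and 4.3 in LSD1i. Combo minus LSD1i was 1.19 ± 0.23 on the centred log2 scale (SE, n = 2 per group; limma adjusted p = 0.0307). It was 0.38 on the fold over the local background, where it was not called. The region called lower lies in Dnah7a (chr1:53664267-53665139). It had 36 and 43 fragments in Combo, against 63 and 77 in LSD1i, with a difference of -1.19 ± 0.25 (SE, n = 2 per group; limma adjusted p = 0.0493). In the authors' deposited tables Nsf stood at 4.21 for Combo and 2.62 for LSD1i, and Dnah7a at 3.67 and 4.05. The groups did not overlap at either region. Leaving out any 1 of the 4 libraries leaves 1 library in a group, so whether the calls hold cannot be judged that way. The differences then lay between 0.94 and 1.43 at Nsf and between -1.30 and -1.08 at Dnah7a.

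Regions outside the threshold, named after their values were seen, included 1 of 2 nearest to Heg1, a transmembrane protein of endothelium. The region lies in the gene Slc12a8, 42.5 kb from the Heg1 start. It had 89 and 119 fragments in Combo, against 38 and 40 in LSD1i (1.04 ± 0.24 SE, n = 2 per group, limma adjusted p = 0.0651). Another, nearest to the kinase Prkg1, had 107 and 99 in Combo, against 36 and 47 in LSD1i (0.96 ± 0.23; limma adjusted p = 0.0757). A region nearest to Atp6v1c1, a subunit of the vacuolar proton pump, had 44 and 45 in Combo, against 14 and 17 in LSD1i (1.17 ± 0.30; limma adjusted p = 0.10), and 1 nearest to Denn2b had 23 and 20 in Combo, against 32 and 46 in LSD1i (-1.20 ± 0.30; limma adjusted p = 0.0881). Further from the threshold, a region 9.8 kb from Hoxa13 had 16 and 25 in Combo, against 30 and 33 in LSD1i (-1.02 ± 0.31; limma adjusted p = 0.183). The median difference over the 690 was -0.12, with quartiles of -0.39 and 0.14, and over all 43671 regions it was -0.04. It was 0.26 for the 690 and 0.33 for all regions when signal was scaled by depth alone, a shift that comes from the centring, and 0.00 and -0.01 when a trend with mean signal was removed. The median of the 690 thus lay below that of all regions with centred signal and with depth scaling and level with it once the trend was removed. On the fold over the local background it lay above, at 0.03 against -0.04.

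**Figure D5:**
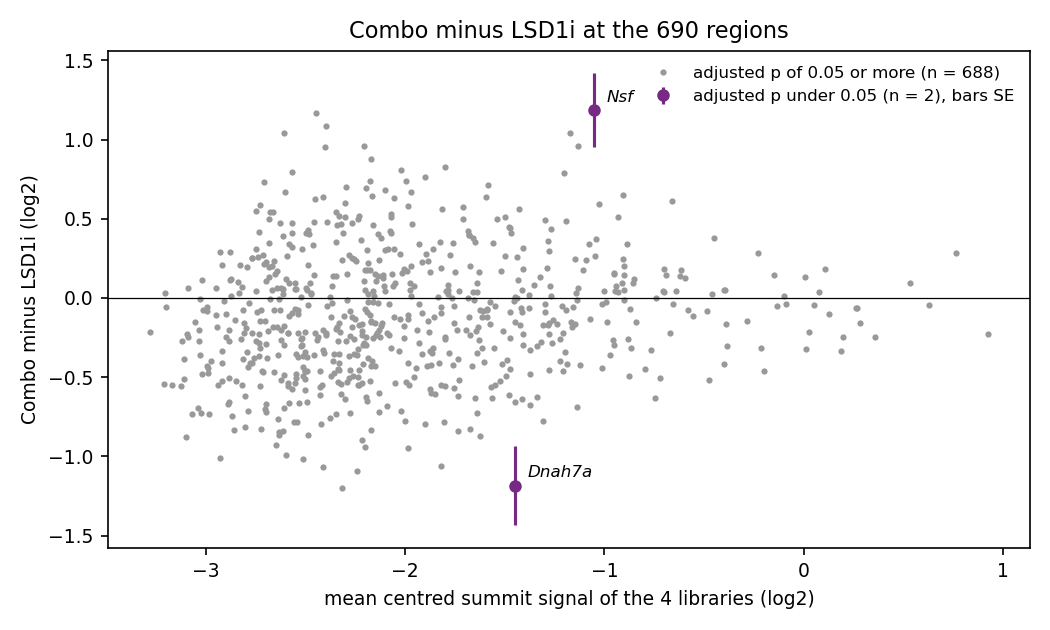
Combo minus LSD1i in centred summit signal (y axis, log2) against the mean signal of the 4 libraries (x axis, log2) for the 690 regions, 1 point each; the 2 regions past an adjusted p of 0.05 carry their SE (n = 2 per group). Grey points lie on both sides of 0 over the whole range, spread more widely at low signal, and the 2 called regions stand at 1.19 and -1.19.

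The edge of the rule was soft. Besides the 690, 548 regions were called in all 4 Combo and LSD1i libraries and in exactly 1 other, 203 of them in Vehicle replicate 2, and their median signal was -2.19. In that extra library it was -2.65. Another 772 were called in 3 of the 4 and in no other, with a median signal of -2.59, and LSD1i replicate 1 was the library without the peak at 399 of them. Without that library the rule gave 1089 regions. Among the 690, the weakest of the 4 calls had a median -log10 q of 8.02, and at 30 regions it was under 2.5, where 2 was the limit for listing.

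Over the whole series the lists held 42651 to 56398 peaks per library, and the lowest background, which stands for depth because read totals are not in the lists, was 2.44 to 4.55 fragments. Median signal at the regions called in all 12 libraries was 16.9 times that background in 6MP replicate 1 and 23.0 times in CER replicate 2, against 28.3 to 42.7 times in the other 10. Without 6MP replicate 1 the rule gave 731 regions, and without CER replicate 2 it gave 710. Of 11 marker genes of granulocyte-monocyte progenitors, 9 had a peak within 1 kb of a start in all 12 libraries, among them Mpo, Ctsg, Cebpa, Spi1 and Kit. Prtn3 had one in 5 libraries and Elane in none. Of 15 markers of other cell types, 6 had one in all 12, among them Cd79a, Klf1, Pf4, Itga2b and Col1a1, and 7 in none, so promoter peaks alone do not separate the labelled cell type from other blood lineages here.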

How the data were processed

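ATAC-seq peak lists of 12 libraries and 5 comparison tables were used. The submitters' processing notes name the mm10 build and MACS2 2.1.2, DiffBind, Trimmomatic 0.38, Picard 2.18.26, SAMtools 1.9 and Bowtie2; settings are not given in the sources used here. For each peak the authors deposited the -log10 p-value, the -log10 q-value, a score and the ratio (fold) of summit to local background; all q-values were 0.01 or less. Each of the 5 tables that the authors deposited gives levels and folds as log2 of normalised reads, the scaling not stated, with a p-value and an FDR per region.

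Summit pileup and local background were recovered by solving each peak's fold and Poisson p-value, and 100% of recovered pileups were whole numbers to within 0.001 of the listed -log10 p-value. Counting error at 13 to 40 fragments limits the precision at most regions. Combo minus LSD1i was tested with limma 3.58.1 in R 4.3.3 (mean-dependent prior variance, two-sided, Benjamini-Hochberg over 43671 regions called in all 4 libraries, fitted over 12 libraries in 6 groups, with no value, and none imputed, where a library had no peak). The 690 regions therefore enter with 4 libraries and borrow the prior spread from the rest. With 2 libraries against 2 an exact permutation test cannot give a p below 0.333. The procedure was tested on simulated data. The correlation of replicate differences between LSD1i and Combo was -0.035 over the 33368 regions called in all 12 libraries, and no block was used. The labels do not say whether libraries of the same replicate number were paired, and this correlation covers 2 of the 6 groups, so it cannot decide that.

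Starts came from RefSeq promoter windows for 17492 protein-coding genes, the authors' tables for 2182 and gene ends for 2213. Motif letters, planned for windows around summits, were searched in RefSeq promoter windows instead. Genes were named for the 20 highest signals, for calls of Combo minus LSD1i, for 3 or more regions at 1 gene, and for the lists. The regions, lists and tests were chosen with earlier results of these data known. Single genes of 1 list and 1 marker are not reported here. Figures and tables were made with Python, pandas, scipy and matplotlib.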

Additional observations from a re-analysis of the deposited data

How the results depend on the processing

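The regions numbered 690 with an overlap of at least 50 bp, 622 with a q-value of 0.001 or less in the 4 inhibited libraries and 686 with no other peak within 500 bp. Leaving out 1 of the 12 libraries gave 710 to 1089 regions, the highest without LSD1i replicate 1, 893 without Vehicle replicate 2. The share of regions near a gene start was 3.77% for a limit of 2000 bp in place of 1 kb, and the share with GFI1 core letters 33.3% to 55.0% without 1 inhibited library; windows of 100 and 400 bp around summits were not run. Median deposited folds kept their size when more of the region had to overlap. A listed gene was nearest within 50 kb at 16 regions. Called differences between Combo and LSD1i, 2 as reported, numbered 8 (all higher) when scaled by depth alone and 5 (4 higher) with the trend removed. With the replicate block they numbered 42 (6.09%, against 5.2% of all regions), 17 of them higher, but replicate numbers are not known to pair the libraries. With the prior from the 4 libraries alone they numbered 44 (6.38%, against 5.24%), 17 of them higher. They numbered 0 on the mean over summits and 0 on the fold over the local background. Without 1 of the 4 libraries a group holds 1 library, and calls are not counted there. The strong Cd83 region turned from -0.25 to 0.13 when scaled by depth and to 0.068 on the local fold; the cause was not tested.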
